A study of Mus musculus with 24 samples.

Results

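The metallothionein family was followed through 24 mouse colorectal RNA-seq libraries. It comprised the 4 genes Mt1, Mt2, Mt3 and Mt4, taken by symbol from the 24346 genes listed in every file. The family was chosen by the difference in Mt4 between tumor and normal tissue with the knockout label, which was known to be large when the family was picked. The values of that contrast are therefore given as a description with no test. All animals received AOM/DSS, a mutagen (azoxymethane) combined with a gut irritant (dextran sulfate sodium) that gives rise to colon tumors in mice. The genotype label was either KO, for a knockout of c-MAF, or WT, for wild type, and each tissue piece was labelled tumor or normal. KO titles carry a number and a zygosity word, which gives 3 groups of 3 tumors, namely KO-8-homo, KO-8-hetero and KO-1-hetero. WT titles carry an age word, giving WT-young with 4 tumors and WT-old with 1 tumor. Each of these groups also had 2 normal libraries. The labels explain neither the numbers 1 and 8, nor how the allele was made or in which cells it acts, nor an age in weeks, nor which libraries share an animal. Replicates are therefore separate libraries, and p-values measure only the spread between them. No untreated animals were analysed here.

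Metallothioneins are small cysteine-rich proteins that bind zinc and copper and buffer free metal. Mt1 and Mt2 are made in most tissues, including gut epithelium, and are induced through the metal-sensing transcription factor MTF-1 and by glucocorticoids and inflammation. Mt3 is best known from brain, and Mt4 from the stratified squamous epithelium of skin, tongue and upper gut.

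The 4 genes lie side by side on the plus strand of chromosome 8 in the order Mt4, Mt3, Mt2, Mt1. In GRCm38.p6, the assembly behind mm10, Mt4 spans chr8:94137204-94139031 and Mt3 spans chr8:94152607-94154148. Mt2 spans chr8:94172618-94173567 and Mt1 spans chr8:94178883-94180327. The cluster covers 43124 bases with no other protein-coding gene inside it, and each gene has 3 exons. The windows from 250 bases before to 50 bases after a RefSeq start of each gene are printed, for genes that differed widely in level. They show matches to the core of the metal response element, the sequence that MTF-1 recognises. The windows of Mt2, Mt3 and Mt4 are placed on the first base of the spans above, and that of Mt1 on a start inside its span. The Mt4 window is chr8:94136954-94137253, the Mt3 window chr8:94152357-94152656, the Mt2 window chr8:94172368-94172667 and the Mt1 window chr8:94178839-94179138. Capitals mark matches to the core TGCACNC or TGCGCNC on either strand, and a match that reads GNGTGCA or GNGCGCA is on the minus strand.
Mt4: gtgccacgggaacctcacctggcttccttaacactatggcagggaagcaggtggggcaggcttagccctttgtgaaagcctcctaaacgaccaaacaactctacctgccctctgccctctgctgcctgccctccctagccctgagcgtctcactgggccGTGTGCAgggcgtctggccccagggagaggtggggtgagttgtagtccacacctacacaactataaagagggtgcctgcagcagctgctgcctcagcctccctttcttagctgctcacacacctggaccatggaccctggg
Mt3: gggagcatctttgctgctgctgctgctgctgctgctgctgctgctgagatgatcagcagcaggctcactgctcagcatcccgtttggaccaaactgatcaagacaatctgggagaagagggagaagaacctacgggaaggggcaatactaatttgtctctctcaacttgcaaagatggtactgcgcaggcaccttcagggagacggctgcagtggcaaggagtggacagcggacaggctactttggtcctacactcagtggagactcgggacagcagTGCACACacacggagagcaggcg
Mt2: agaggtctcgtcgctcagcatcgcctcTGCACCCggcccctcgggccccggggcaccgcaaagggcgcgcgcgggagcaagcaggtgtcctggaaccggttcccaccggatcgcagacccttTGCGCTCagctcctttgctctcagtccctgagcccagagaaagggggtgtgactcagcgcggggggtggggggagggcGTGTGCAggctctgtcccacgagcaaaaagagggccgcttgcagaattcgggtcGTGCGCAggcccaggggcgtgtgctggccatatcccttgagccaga
Mt1: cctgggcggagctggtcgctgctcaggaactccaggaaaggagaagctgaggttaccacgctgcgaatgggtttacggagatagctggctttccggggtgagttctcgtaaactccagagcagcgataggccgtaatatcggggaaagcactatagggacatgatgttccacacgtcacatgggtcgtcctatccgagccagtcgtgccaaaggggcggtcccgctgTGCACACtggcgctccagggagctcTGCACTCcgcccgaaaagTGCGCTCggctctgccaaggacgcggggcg
The Mt2 window held 4 matches and the Mt1 window 3, while Mt3 and Mt4 held 1 each, and no matches overlapped. Of 32544 distinct promoter windows of this length, 25.9% held at least 1 match, 1.99% at least 3 and 0.522% at least 4. GENCODE M21 places further transcript starts outside these windows for Mt1 (2 of 3 transcripts), Mt2 (1 of 2) and Mt3 (2 of 3). A match is a description of letters only.

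Levels are FPKM, fragments scaled to transcript length and library size, a per-length scale. The lengths the authors used are not known, and the longest GENCODE M21 transcripts hold 398 (Mt4), 536 (Mt3), 511 (Mt2) and 1085 (Mt1) exonic bases. Shares and ranks between members therefore depend on a length model that could not be checked. Whether that model also affects values of 1 gene across libraries is not known. Relative depth ranged from 0.688 to 1.87 of the median library, and 12074 to 13290 genes reached 1 FPKM. No pair of libraries held identical values. Maf, the gene of the genotype label, was not lower with the KO label: KO tumors had 2.62 to 7.40 FPKM and the WT-young tumors 1.63 to 2.26 FPKM, so KO below means libraries labelled KO. The WT-old tumor, with 7.26 FPKM of Maf, stood apart from the WT-young tumors, and results that rest on it are given with and without it. Its summed level of 6 smooth muscle markers was 2007 FPKM, whereas the WT-young tumors had 111 to 254 FPKM. Its summed Paneth-like markers were 125 FPKM, whereas the WT-young tumors had 3378 to 5818 FPKM. KO-8-hetero tumor 2 also stood apart, with 8895 FPKM of the 5 squamous keratin and Trp63 markers described with Mt4. In bulk tissue, fewer cells of a type and less RNA per cell cannot be told apart.

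On the deposited FPKM scale, Mt1 was the leading member in normal tissue. Mt1 was the highest of the 4 in 10 of 10 normal libraries, with 60.7% to 78.0% of the summed metallothionein FPKM (median 64.5%). Mt2 was the next, at 0.262 to 0.557 times the Mt1 level. Mt4 made up 0.0880% to 0.618% and reached 1 FPKM in 5 of the 10 libraries. Tumors had another composition. Mt4 was the highest member in 9 of 14 tumors, Mt1 in 3 and Mt2 in 2, and Mt2 exceeded Mt1 in 10 of 14 tumors but in 0 of 10 normal libraries. The share of Mt4 in tumors ranged from 0.612% to 50.4% (median 36.4%). The summed level of the 4 genes had a median of 1039 FPKM in tumors (142 to 1559) and 310.3 FPKM in normal tissue (173 to 598), so the ranges overlapped. Ranked by FPKM among all genes, Mt4 held a median place of 204 in tumors and 12803.5 in normal libraries.

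**Figure D1:**
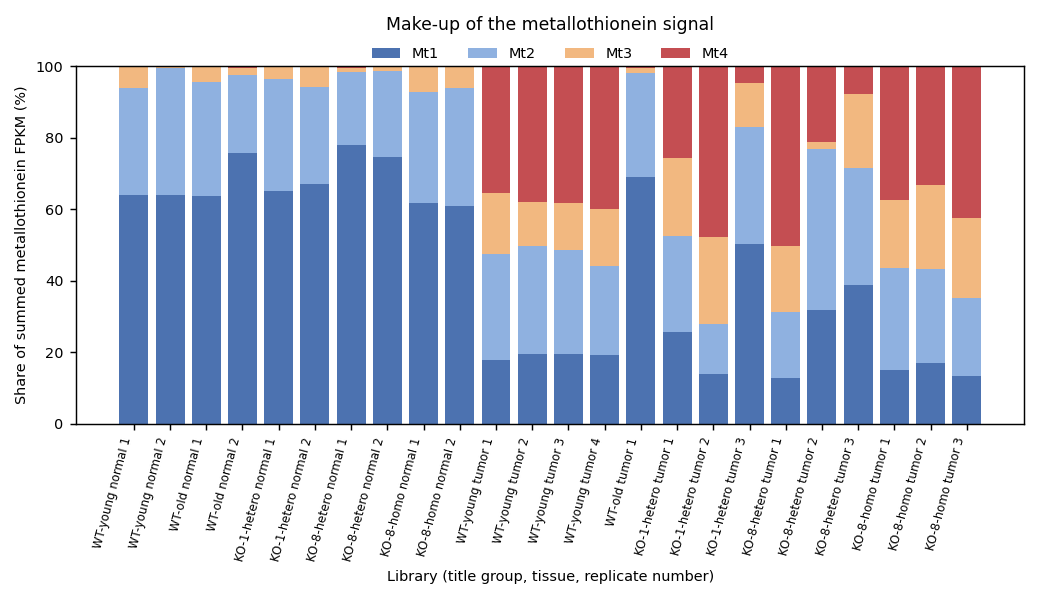
Share of each metallothionein in the summed FPKM of the 4 genes, in percent, for every library, with tumors and normal tissue separated. Mt1 is the largest share in 10 of 10 normal libraries, and Mt4 is the largest in 9 of 14 tumors.

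Mt4, the squamous epithelial member, showed the widest range. WT-young tumors measured 444, 521, 467 and 526 FPKM, and the WT-old tumor 0.870 FPKM. The WT normal libraries measured 0.728 and 1.43 FPKM in WT-young and 0.526 and 1.07 FPKM in WT-old tissue. The WT-young tumors thus lay far above every normal library, and the WT-old tumor lay among the normal libraries. The KO-8-homo tumors measured 442, 352 and 433 FPKM, a narrow range near the WT-young tumors. The KO-1-hetero tumors measured 91.7, 339 and 12.0 FPKM and the KO-8-hetero tumors 786, 175 and 26.3 FPKM, so both hetero groups spread widely. KO normal libraries ranged from 0.600 to 1.53 FPKM. Every KO tumor lay above every KO normal library.

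Mt3, the brain member, followed a similar but less extreme order. The WT-young tumors measured 214, 168, 159 and 209.5 FPKM, and the WT-old tumor 2.09 FPKM. WT normal tissue gave 27.3 and 1.44 FPKM in WT-young and 26.5 and 3.22 FPKM in WT-old libraries. Normal Mt3 thus differed many-fold between libraries of 1 title group, and the WT-old tumor lay within that range. The KO-8-homo tumors measured 223, 249 and 226 FPKM, the KO-1-hetero tumors 78.8, 173 and 31.4 FPKM and the KO-8-hetero tumors 287, 16.1 and 70.7 FPKM. KO normal libraries ranged from 2.36 to 21.1 FPKM. In 12 of 14 tumors Mt3 exceeded every normal library of either label, and the exceptions were the WT-old tumor and KO-8-hetero tumor 2. The share of all genes with as many tumors above every normal library was not computed.

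Mt1 and Mt2, the broadly expressed members, differed less. For Mt2 the WT-young tumors measured 374, 415, 356 and 324 FPKM, and the WT-old tumor 41.3 FPKM. WT normal Mt2 was 136 and 182 FPKM in WT-young and 191 and 37.7 FPKM in WT-old libraries, so the WT-young tumors lay above all of them. For Mt1 the WT-young tumors measured 222, 268, 237 and 253 FPKM, and the WT-old tumor 98.0 FPKM. WT normal Mt1 was 292 and 327 FPKM in WT-young and 380 and 131 FPKM in WT-old libraries, and the groups overlapped. In KO tumors Mt2 ranged from 82.1 to 371 FPKM and Mt1 from 91.1 to 261 FPKM, with medians of 222 and 136 FPKM. In KO normal libraries the ranges were 50.8 to 106 FPKM for Mt2 and 137 to 249 FPKM for Mt1.

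**Figure D2:**
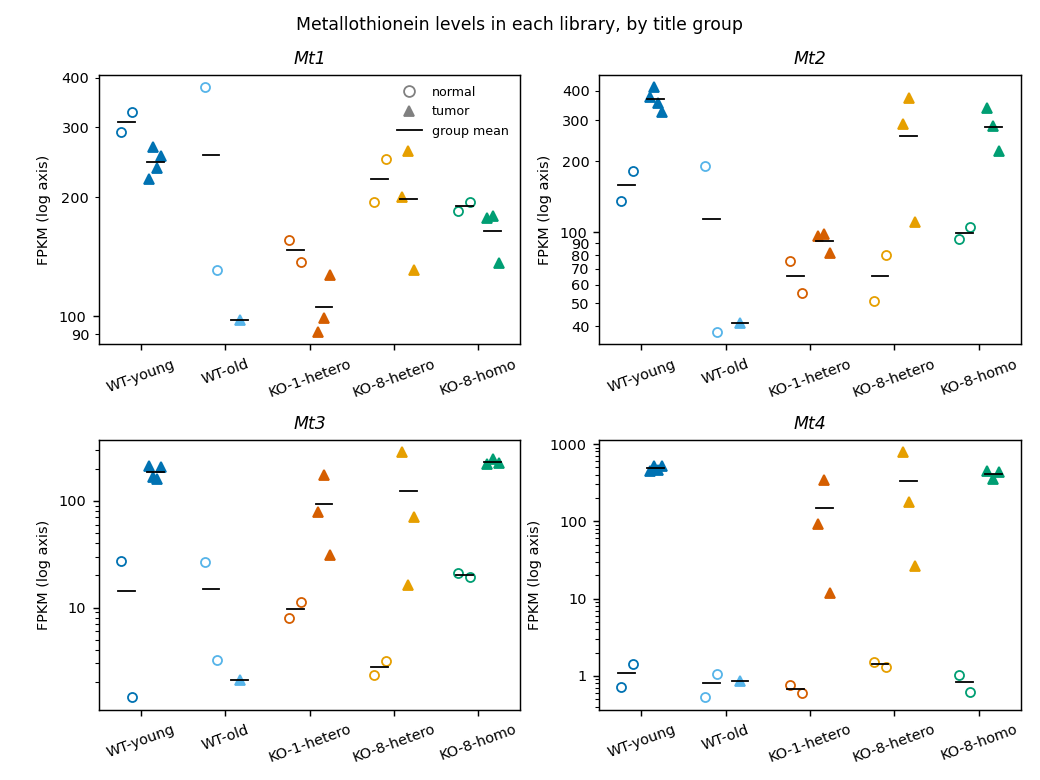
FPKM of each metallothionein (log axis) in every library, by title group, with filled triangles for tumors, open circles for normal tissue and a black line at each group mean. Mt3 and Mt4 separate most tumors from normal tissue, the WT-old tumor lies with the normal libraries for both genes, and Mt1 overlaps between the tissues.

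Tumor and normal tissue were compared within the WT label, whose libraries did not enter the contrast by which the family was chosen. The limma model took its spread from all 24 libraries, KO libraries included, so its p-values are not independent of that choice. Fold changes are differences of log2(FPKM + 1), and the pseudocount of 1 understates changes of low genes such as Mt4. Of 13799 genes tested, 30.4% passed an adjusted p of 0.05 in limma, 15.5% higher and 14.8% lower in tumors, and 2 of the 4 members passed, both higher. Mt4 rose by 6.40 ± 1.29 (SE, n = 5 and 4, limma adjusted p = 0.00098), from 0.938 ± 0.397 to 392 ± 221 FPKM (SD). Mt3 rose by 3.12 ± 1.10 (limma adjusted p = 0.0348), from 14.6 ± 14.2 to 150.5 ± 86.4 FPKM. Mt2 had a difference of 1.03 ± 0.602 (limma adjusted p = 0.194) and Mt1 of -0.36 ± 0.323 (limma adjusted p = 0.405). For Mt2, Mt3 and Mt4, 4 of 5 WT tumors lay above all 4 WT normal libraries, and 24.3% of all genes tested had at least 4 of 5 WT tumors there. Exact permutation tests gave p = 0.0317 for Mt4, 0.135 for Mt3, 0.262 for Mt2 and 0.421 for Mt1 (two-sided), and 0.381 for Mt4 after Benjamini-Hochberg adjustment over the 12 exact tests of members.

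Without the WT-old tumor, Mt4 was higher by 8.00 (limma adjusted p = 2.07e-06), Mt3 by 4.30 (limma adjusted p = 0.000923) and Mt2 by 1.65 (limma adjusted p = 0.0142), so the call for Mt2 rests on leaving that library out. Mt2, Mt3 and Mt4 then each reached an exact permutation p of 0.0286, the smallest that 4 against 4 allows, or 0.0571 adjusted over 8 such tests. Without the WT-old tumor, limma called 16.3% of all genes tested higher in tumors and 15.5% lower. The share of all genes whose tumors and normal libraries then separated fully was not computed. The Mt3 call was lost without WT-young tumor 1 (limma adjusted p = 0.0836), 2 (0.0767), 3 (0.0749) or 4 (0.0714). It was lost again without WT-young normal 2 (0.119) or WT-old normal 2 (0.0936). The Mt4 call held under all 17 alternatives, with limma adjusted p from 2.07e-06 to 0.00457.

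Under the KO label the same differences are given without a test. Mt4 was higher in tumors by 6.43 ± 1.01 (SE, n = 9 and 6), Mt3 by 3.52 ± 0.862, Mt2 by 1.26 ± 0.473, and Mt1 differed by -0.30 ± 0.254. The numbers of KO tumors above every KO normal library were 9, 8, 6 and 1 of 9, in that order. Of all genes tested, 47.2% were called in this comparison, and 8.48% had every tumor above every normal library, as Mt4 did. The shares of all genes that reached the counts of Mt3 and Mt2 were not computed. The tissues were not balanced for Xist, the RNA of the inactive X chromosome. It was above 1 FPKM in every KO hetero normal library. Among KO tumors it was above 1 FPKM only in KO-1-hetero tumor 3 and KO-8-hetero tumor 3.

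Beside Mt4, the defining markers of stratified squamous epithelium (Krt5, Krt14, Trp63, Krt13 and Krt4) were summed. They reached 8895 FPKM in KO-8-hetero tumor 2 and 1034 FPKM in WT-young tumor 2. The 12 other tumors had 5.37 to 74.5 FPKM (median 21.4), and the normal libraries 2.78 to 5.12 FPKM. In those 12 tumors Mt4 ranged from 0.870 to 786 FPKM with a median of 392 FPKM. All 12 had more squamous marker RNA than any normal library. KO-8-hetero tumor 2, the highest in squamous markers, had 175 FPKM of Mt4. The WT-old tumor and KO-1-hetero tumor 3 were the lowest tumors in these markers, at 5.37 and 5.69 FPKM. They were also the lowest tumors in Mt4, at 0.870 and 12.0 FPKM. KO-8-hetero tumor 1, the highest in Mt4 at 786 FPKM, had 13.8 FPKM of markers. All 5 markers were above 0 in every tumor, and 1 of them was at 0 in 4 of 10 normal libraries. Over the whole list of 12 squamous genes, the summed level was 28.4 to 14280 FPKM in tumors and 31.1 to 69.2 FPKM in normal tissue. Under the WT label 1 of 8 tested squamous genes rose in tumors and 0 fell (median 1.59, or 2.03 without the WT-old tumor). The part of squamous cells in the Mt4 levels was not tested. Without the 2 marker-rich tumors, the Mt3 difference under the WT label was 2.86 (limma adjusted p = 0.0624). That alternative was added with the data known.

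**Figure D3:**
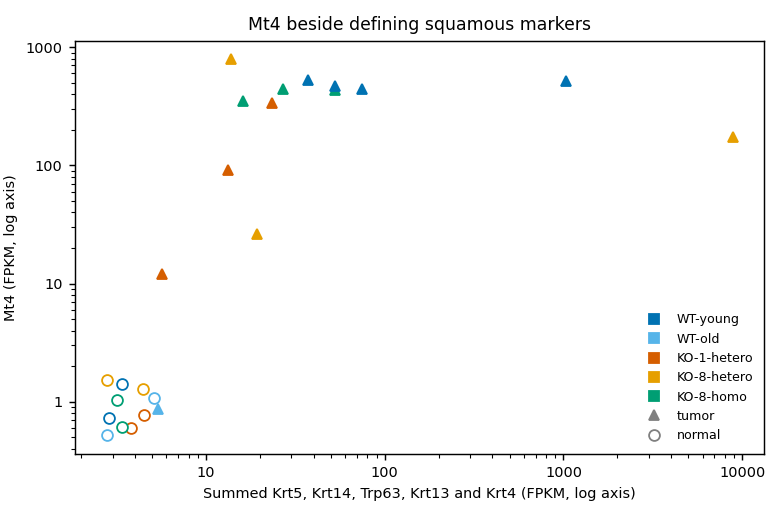
Mt4 against the summed level of Krt5, Krt14, Trp63, Krt13 and Krt4 in each library, both in FPKM on log axes, with triangles for tumors and circles for normal tissue. Every tumor lies above the normal libraries for these markers. Most tumors with over 100 FPKM of Mt4 have under 100 FPKM of these markers. The tumor with 8895 FPKM of markers has 175 FPKM of Mt4, and the WT-old tumor is the lowest tumor in both.

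Markers of enteric glia and neurons were set beside Mt3, the member known from nervous tissue. Their sum over 8 genes was 3.07 to 10.9 FPKM in tumors and 6.71 to 23.0 FPKM in normal tissue. Under the WT label, 4 of 5 tested markers fell in tumors and 0 rose in limma, while Mt3 rose. Paneth-like markers, absorptive colonocyte markers and smooth muscle markers also moved with the tissue: 8 of 9, 0 of 7 and 0 of 6 were higher, and 0, 6 and 6 were lower. Of 6 markers each, 5 macrophage, 4 neutrophil and 1 fibroblast marker rose and 0 fell. Without the WT-old libraries 0 macrophage and 4 neutrophil markers rose, and 1 fibroblast marker fell. Their part in the metallothionein differences was not tested.

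The KO and WT labels were compared next. The KO libraries had entered the contrast by which the family was chosen. The p-values below that use KO libraries are therefore not independent of that choice. In tumors 1 of 13799 genes (0.00725%) was called, and 0 of the 4 members. At an unadjusted p under 0.05 there were 1147 genes and again 0 members. Differences of KO minus WT were -0.46 ± 0.269 for Mt1, -0.40 ± 0.500 for Mt2, 0.39 ± 0.913 for Mt3 and 0.06 ± 1.07 for Mt4 (SE, n = 9 and 5, limma adjusted p from 0.670 to 0.992). Exact permutation p-values were 0.143, 0.541, 0.748 and 0.973 in that order. These standard errors leave room for sizeable differences in either direction for Mt3 and Mt4. Without the WT-old tumor and normal libraries the signs of Mt3 and Mt4 turned, to -0.79 (limma adjusted p = 0.717) and -1.55 (limma adjusted p = 0.442). Against the 4 WT-young tumors alone, 8 of 9 KO tumors had less Mt1 than any of them (exact permutation p = 0.0196, or 0.0571 adjusted over 8 such tests), 7 of 9 less Mt2 (p = 0.0503) and 8 of 9 less Mt4 (p = 0.148). Of all genes, 4.36% had at least 8 of 9 KO tumors below and 8.88% at least 7 of 9. For Mt3, 4 of 9 lay below and 4 above all WT-young tumors (exact permutation p = 0.330). In normal tissue 0 genes were called in limma, and 645 genes but 0 members had an unadjusted p under 0.05. The differences were -0.52 ± 0.311 for Mt1, -0.63 ± 0.579 for Mt2, -0.01 ± 1.06 for Mt3 and 0.03 ± 1.24 for Mt4 (SE, n = 6 and 4), with exact permutation p of 0.138, 0.238, 0.981 and 0.871. The limma standard errors pool the spread of tumors and normal libraries, so for Mt4 they exceed the spread among normal libraries. On the log2 scale the SD of Mt4 was 0.273 in KO and 0.294 in WT normal libraries. The labels were not balanced for Xist here, which was above 1 FPKM in every KO hetero normal library and in no WT library.

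Each KO title group was then set beside the WT-young tumors, which all 3 comparisons share. In KO-1-hetero tumors 2.88% of genes were called, and Mt1 and Mt2 were the 2 members called, both lower, as were 1.25% of all genes. The 397 calls behind that share fell to 18 without KO-1-hetero tumor 1 and to 15 without KO-1-hetero tumor 3. Without a WT-young tumor they fell to between 121 and 171. Mt1 measured 91.1, 99.1 and 127 FPKM, below all 4 WT-young tumors, and fell by 1.22 on the log2 scale (SE 0.274, n = 3 and 4, limma adjusted p = 0.0303). Mt2 measured 96.0, 98.5 and 82.1 FPKM, also below all of them, and fell by 1.98 (SE 0.420, limma adjusted p = 0.0239). Mt4 was below all WT-young tumors as well, with a difference of -2.72 ± 0.897 (limma adjusted p = 0.107), and Mt3 had -1.29 ± 0.858 (limma adjusted p = 0.446). Without KO-1-hetero tumor 3 these were -1.46 and -0.67. For 14.8% of all genes the KO-1-hetero tumors lay entirely below the WT-young tumors.

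Both calls sat close to the threshold. The Mt1 call was lost on leaving out any 1 of the 7 tumors compared. Its limma adjusted p was then 0.158, 0.0627 and 0.0728 without KO-1-hetero tumor 1, 2 and 3, and 0.0577, 0.0789, 0.0550 and 0.0649 without WT-young tumor 1, 2, 3 and 4. The Mt2 call was lost without KO-1-hetero tumor 1 (0.103) or 3 (0.102), or WT-young tumor 1 (0.0577) or 2 (0.0621). Mt4 passed without KO-1-hetero tumor 2 (-3.82, limma adjusted p = 0.0303). KO-1-hetero tumors also had more smooth muscle marker RNA, 472 to 747 FPKM summed over 6 genes against 111 to 254 FPKM, and Des and Cnn1 were called higher (limma adjusted p = 0.0494 and 0.0474). Their macrophage markers summed to 409 to 607 FPKM, above the 217 to 327 FPKM of WT-young tumors, with 0 of 6 called in limma and 4 of 6 at an unadjusted p under 0.05. Xist, the RNA of the inactive X chromosome, was at 7.38 to 49.9 FPKM in 6 KO hetero libraries and below 1 FPKM in all others. Among tumors these were KO-1-hetero tumor 3 and KO-8-hetero tumor 3, which had the lowest Mt4 of the KO tumors. The rest were normal libraries 1 and 2 of KO-1-hetero and of KO-8-hetero. With a term for Xist, the difference of KO-1-hetero tumors was -1.15 for Mt1 (limma adjusted p = 0.0759) and -1.68 for Mt2 (limma adjusted p = 0.0655), in place of -1.22 and -1.98. The part of smooth muscle or macrophage content in the lower Mt1 and Mt2 was not tested.

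The 2 other KO groups gave no call for a member. In KO-8-hetero tumors 0.00725% of genes were called against WT-young, and the members differed by -0.36 ± 0.274 (Mt1), -0.68 ± 0.420 (Mt2), -1.40 ± 0.858 (Mt3) and -1.65 ± 0.897 (Mt4), with limma adjusted p from 0.709 to 0.770. Single tumors decided the sizes: Mt3 and Mt4 were -2.41 and -2.82 without KO-8-hetero tumor 1, Mt3 was -0.38 without tumor 2, and Mt4 was -0.39 without tumor 3. In KO-8-homo tumors 0.457% were called, and the members differed by -0.59 ± 0.274, -0.40 ± 0.420, 0.32 ± 0.858 and -0.26 ± 0.897 (limma adjusted p from 0.489 to 0.958). The limma standard errors pool the spread of all 10 title groups. The SD of Mt4 on the log2 scale was only 0.180 in KO-8-homo and 0.120 in WT-young tumors. All 3 KO-8-homo tumors lay below the WT-young tumors for Mt1 and Mt4, as for 11.4% of all genes, and above them for Mt3, as for 9.81%. Between KO-8-homo and KO-8-hetero tumors 0.0507% of genes were called. The members differed by -0.22 ± 0.293, 0.28 ± 0.449, 1.72 ± 0.917 and 1.39 ± 0.959 (limma adjusted p from 0.882 to 0.996). Mt3 and Mt4 moved to 2.73 and 2.56 without KO-8-hetero tumor 1, Mt3 to 0.70 without tumor 2, and Mt4 to 0.13 without tumor 3. In order of the mean on the log2 scale, Mt2 and Mt4 were highest in WT-young, then KO-8-homo, KO-8-hetero, KO-1-hetero and WT-old tumors. For Mt2, KO-8-homo and KO-8-hetero overlapped each other, as did WT-young and KO-8-homo, while KO-1-hetero lay below KO-8-hetero with no overlap. For Mt4, KO-8-homo overlapped KO-8-hetero, and KO-8-hetero overlapped KO-1-hetero. Mt1 ran from WT-young through KO-8-hetero, KO-8-homo and KO-1-hetero to WT-old, and KO-1-hetero was separated from KO-8-homo. Mt3 ran from KO-8-homo through WT-young, KO-1-hetero and KO-8-hetero to WT-old, and KO-8-homo stood clear above WT-young, and WT-old clear below KO-8-hetero. Apart from KO-8-homo and WT-young, the share of all genes that separated these neighbouring groups was not computed.

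**Figure D4:**
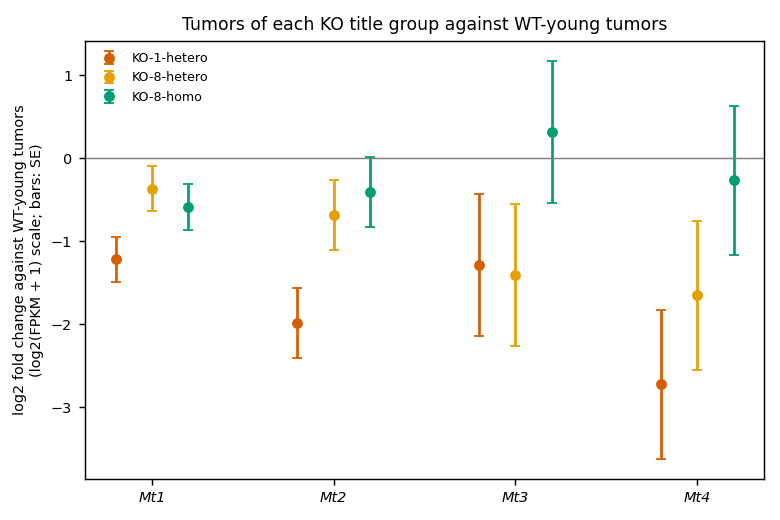
Difference of each KO tumor group from the 4 WT-young tumors for the 4 metallothioneins, in log2(FPKM + 1), with standard errors from limma. The differences of KO-1-hetero tumors are -1.22 for Mt1 and -1.98 for Mt2, and KO-8-homo tumors lie closest to 0 for Mt4.

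Mt1 varied with Mt2, and Mt4 with both Mt3 and Mt2, across tumors. Over 14 tumors Mt1 and Mt2 had Pearson's r of 0.902 (permutation p = 1e-05, the smallest the resampling can give, adjusted 0.00012 over 12 relations) and Spearman's rho of 0.912 (permutation p = 1e-05). Without the 2 tumors farthest from the Mt1 median r was 0.893, and within title groups it was 0.788. Mt3 and Mt4 had r of 0.880 (permutation p = 0.0008, adjusted 0.0032) and rho of 0.697 (permutation p = 0.00745, adjusted 0.0149). Without the WT-old tumor r was 0.728, without that tumor and KO-8-hetero tumor 2 it was 0.954, and within title groups 0.617. Mt2 and Mt4 had r of 0.853 (permutation p = 0.00023, adjusted 0.00138) and rho of 0.719 (permutation p = 0.00518, adjusted 0.0149), with r of 0.654 without the 2 farthest tumors and 0.615 within title groups. Mt1 and Mt4 had r of 0.609 (permutation p = 0.0153, adjusted 0.0262) and rho of 0.714 (permutation p = 0.00576), and r was 0.479 without the 2 farthest tumors and 0.156 within title groups, so it did not hold within groups. Mt2 and Mt3 had r of 0.647 (permutation p = 0.0118, adjusted 0.0236) and rho of 0.310 (permutation p = 0.282), but r was 0.152 without the 2 farthest tumors and -0.11 within title groups, so that relation rests on those tumors. Mt1 and Mt3 had r of 0.364 (permutation p = 0.207, adjusted 0.311) and rho of 0.231 (permutation p = 0.428), with r of -0.43 within title groups.

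Normal tissue showed a different pattern for Mt3 and Mt4. Over 10 normal libraries Mt1 and Mt2 again rose together, with r of 0.885 (permutation p = 0.00112, adjusted 0.00336), rho of 0.879 (permutation p = 0.00168) and r of 0.755 without the 2 farthest libraries. Mt3 and Mt4 had an r of -0.833 (permutation p = 0.00613, adjusted 0.0147), rho of -0.806 (permutation p = 0.00715, adjusted 0.0149) and r of -0.695 without the 2 farthest libraries. Mt4 spanned only 0.526 to 1.53 FPKM there. The 4 other pairs had r between -0.240 and 0.375 (permutation p from 0.28 to 0.948). Libraries may share animals, which the labels do not give.

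**Figure D5:**
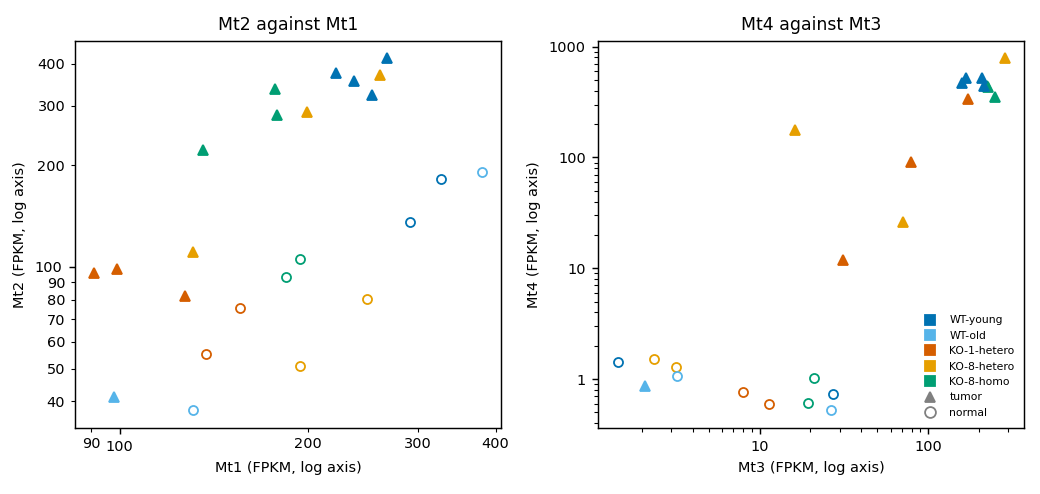
Mt2 against Mt1 (left) and Mt4 against Mt3 (right) in each library, in FPKM on log axes, with triangles for tumors, circles for normal tissue and a color for each title group. Mt1 and Mt2 rise together in both tissues, whereas Mt4 rises with Mt3 in tumors (r of 0.880) and falls with it in normal tissue (r of -0.833).

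The genes with the most similar profile over the 14 tumors, by Pearson's r of log2(FPKM + 1), differed between members. They are given as a description, since libraries differ in depth and composition, which all genes of a library share. For Mt3 they were Notum (0.986), Tbc1d30 (0.980), Spock2 (0.976), Wif1 (0.974) and the zinc exporter Slc30a2 (0.974). Notum and Wif1 encode secreted Wnt antagonists, and their tumor medians were 61.3 and 152 FPKM against 0.293 and 1.12 FPKM in normal tissue. For Mt4 they were the keratin Krt23 (0.974), the transcription factor Sox21 (0.962), Epb4.1l5 (0.961), Gm20219 (0.959) and Mboat2 (0.955). For Mt2 they were Pcsk6 (0.953), Fbxw9 (0.949), Tmod3 (0.943), Entpd3 (0.939) and the lipoxygenase Alox12 (0.938). For Mt1 they were Exoc5 (0.942), H3f3b (0.925), Wdr45b (0.922), Rnh1 (0.917) and Nrbp1 (0.913). In normal tissue (n = 10) the nearest to Mt3 were Smim3 (0.987) and the zinc importer Slc39a8 (0.986), the nearest to Mt4 was Bnip3 (0.923), and Mt1 and Mt2 were each among the nearest of the other.

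Genes flanking the cluster had smaller differences than Mt3 and Mt4. On the Mt4 side, Nudt21 differed by 0.41 between WT tumors and WT normal tissue (limma adjusted p = 0.0221), Ogfod1 by -0.22 (0.197) and Bbs2 by 0.29 (0.212). On the Mt1 side, Nup93 rose by 0.89 (limma adjusted p = 0.00166), Herpud1 differed by -0.44 (0.084), and Slc12a3, with medians of 0.0510 FPKM in tumors and 0.0349 FPKM in normal tissue, was below the filter.

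Other genes of metal handling did not move as a block with Mt3 and Mt4 between WT tumors and WT normal tissue. Mtf1, which encodes MTF-1, measured 3.63 and 3.85 FPKM and differed by -0.04 (limma adjusted p = 0.892). Over all genes 15.5% rose and 14.8% fell. Of 8 tested metal-responsive genes 2 rose and 4 fell (median -0.77, against 0.02 over all genes). The heme-degrading Hmox1 rose by 2.09 (limma adjusted p = 0.00092), and Slc30a1, the plasma-membrane zinc exporter and a classical MTF-1 target, fell by 0.84 (limma adjusted p = 0.000993). Of 8 zinc exporters 1 rose and 3 fell (median -0.24): Slc30a2 rose by 3.63 (limma adjusted p = 0.00139), from 0.364 to 25.2 FPKM, and Slc30a10 fell by 2.12 (limma adjusted p = 0.00048). Of 13 zinc importers 3 rose and 3 fell (median 0.06), with Slc39a6 higher by 1.19 (limma adjusted p = 0.00291) and Slc39a9 lower, at -0.72 (limma adjusted p = 0.00218). Of 11 copper genes 2 rose and 3 fell (median 0.15), with the metalloreductase Steap4 higher by 2.37 (limma adjusted p = 3.7e-05) and the copper chaperone Ccs at -0.64 (limma adjusted p = 0.00103). Without the WT-old libraries fewer genes were called: 2 rose and 1 fell among metal-responsive genes, 1 and 2 among exporters, 1 and 0 among importers, and 3 and 1 among copper genes.

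Lists of genes from pathways known to induce Mt1 and Mt2 are read against the 15.5% of all genes that rose and the 14.8% that fell. Of 14 acute-phase genes of IL-6 and STAT3 signalling 9 rose and 0 fell (median 1.80), with Socs3 higher by 1.90 (limma adjusted p = 0.000312) and Saa3 by 4.71 (limma adjusted p = 0.000484). Of 10 glucocorticoid-induced genes 0 rose and 3 fell (median -0.48), with Fkbp5 at -2.01 (limma adjusted p = 0.000506) and Klf9 at -0.92 (limma adjusted p = 0.000922). Of 10 Nrf2 antioxidant genes 2 rose and 3 fell (median -0.24), with Slc7a11 higher by 1.80 (limma adjusted p = 0.00022) and Gclm at -0.78 (limma adjusted p = 0.000664). Of 10 hypoxia genes 0 were called in limma, and 2 had an unadjusted p under 0.05. Without the WT-old libraries 8 acute-phase genes rose, 3 glucocorticoid genes fell, and 3 Nrf2 genes rose while 1 fell (Nrf2 median 0.12), where 9.86% of all genes rose and 9.58% fell. The glucocorticoid list thus had 3 of 10 genes called with all libraries, all of them lower. Of all genes 14.8% fell and 30.4% were called in either direction, and the difference from these shares was not tested. Between KO and WT tumors 0 of 80 tested genes of the metal and inducer lists were called in limma (5 at an unadjusted p under 0.05), and against WT-young tumors the KO-1-hetero tumors gave 1 call, the copper chaperone Atox1 at -0.54 (limma adjusted p = 0.0460).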

How the data were processed

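RNA-seq was deposited for 24 AOM/DSS mouse colorectal libraries (total RNA, stranded mRNA libraries, per the labels' protocols). The authors deposited FPKM values per gene symbol, 24346 per library. The submitters' processing notes name TopHat2 2.1.1, Bowtie2 2.2.8, SAMtools 0.1.18, Cuffdiff 2.2.1 and mm10; annotation, normalization mode and filters are not given in the sources used here. FPKM of short transcripts such as these depends on the length model, and fragment totals are unknown, so relative depth was estimated from the steps of low values.

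Genes at 1 FPKM or more in at least 4 libraries (13799, all 4 members) were tested on log2(FPKM + 1) with limma 3.58.1 in R 4.3.3 (eBayes with trend, two-sided, Benjamini-Hochberg, threshold 0.05). All 24 libraries entered a model of genotype label by tissue, and another of the 10 title groups. Exact permutation tests and correlations (100000 resamples) used Python 3.11.15, numpy 2.4.6, pandas 2.3.3 and scipy 1.17.1. The fit was tested on simulated data in which every library of a gene had the same spread. False calls made up 4.50% to 6.96% of calls there, on average per comparison. Genes whose spread differs between groups, such as Mt4, were not simulated. Promoter windows are from RefSeq (GRCm38.p6, 4 of 4 members matched by symbol), transcripts from GENCODE M21. Members, gene lists and tests were chosen with earlier results of these data known. From each list the 2 genes with the smallest p past the threshold were named; Slc30a2 was named as a profile neighbour of Mt3, and Mtf1, Des, Cnn1 and Atox1 after their values were seen. Alternatives covered the pseudocount, filter, scaling, WT-old, Xist, squamous-rich tumors, the replicate block and each library left out.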

Additional observations from a re-analysis of the deposited data

Results flagged for a closer look

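The WT-old tumor was far below the 4 WT-young tumors for every member, the gap exceeding what Dixon's test allows within the 5 WT tumors: 98.0 FPKM for Mt1, 41.3 FPKM for Mt2, 2.09 FPKM for Mt3 and 0.870 FPKM for Mt4. These were 4 of 20 groups of values examined, where chance flags about 1 in 20, and all 4 come from 1 library. Its absorptive colonocyte markers summed to 1506 FPKM, within the WT-young range of 463 to 1946 FPKM. Its smooth muscle markers, given above, were higher than in any other tumor. Whether age, tissue content or another property of that library goes with these values was not tested, since WT-old has a single tumor.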

How the results depend on the processing

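Over settings other than leaving out 1 library, 236 member values kept direction and call, 9 lost a call and 11 changed sign. Over single omissions 263 kept both, 17 lost a call, 2 gained one and 18 changed sign. Tumor against normal tissue with the KO label has no call. Its values were counted as kept where the sign held and the shift was below the SD of the KO tumors. The alternatives with Xist below 1 FPKM only and without the 2 squamous-rich tumors were chosen after seeing the data.

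KO minus WT in tumors had 0 calls with a pseudocount of 0.1, no filter, no WT-old libraries, a term for Xist, the replicate block, Xist below 1 FPKM only, or no squamous-rich tumors, and 0 to 2 over omissions. Without the WT-old libraries Mt3 was -0.79 and Mt4 -1.55 there; over omissions they ranged from -0.79 to 0.74 and from -1.55 to 0.52. In normal tissue Mt3 turned to 0.071 (pseudocount of 0.1), 0.18 (no WT-old libraries), 1.07 (Xist term) and 1.16 (Xist below 1 FPKM only). Mt4 turned to -0.077 without WT-old libraries and -0.075 with Xist below 1 FPKM only. Over omissions they ranged from -0.66 to 0.52 and from -0.082 to 0.14.

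Between WT tumors and normal tissue, Mt3 missed the threshold with no filter (3.12), the replicate block (2.72) and without the squamous-rich tumors (2.86), and ranged from 2.47 to 4.30 over omissions. Mt2 ranged from 0.50 to 1.65 over them. Calls fell to 2661 without the WT-old libraries. Under the KO label they fell to 3652 with Xist below 1 FPKM only.

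In KO-1-hetero against WT-young tumors, Mt1 missed the threshold with the Xist term (-1.15), the replicate block (-1.20), Xist below 1 FPKM only (-1.36) and no squamous-rich tumors (-1.17), and ranged from -1.36 to -1.12 over omissions. Mt2 missed it with the Xist term (-1.68) and Xist below 1 FPKM only (-1.90), and ranged from -2.04 to -1.90. Mt4 ranged from -3.82 to -1.46. The calls numbered 110, 230, 94 and 220 under the Xist term, the block, Xist below 1 FPKM only and no squamous-rich tumors, and 15 to 349 over omissions, with 18 without KO-1-hetero tumor 1 and 15 without tumor 3.

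Against WT-young tumors, KO-8-hetero gave 2 calls with no filter, 0 with the block, 3 with Xist below 1 FPKM only and 0 without squamous-rich tumors, and 0 to 245 over omissions, the highest without KO-8-hetero tumor 1. Mt3 ranged there from -2.41 to -0.38 and Mt4 from -2.82 to -0.39. KO-8-homo gave 18 to 49 over omissions. Between KO-8-homo and KO-8-hetero, Mt2 turned to -0.022 (Xist term) and -0.24 (Xist below 1 FPKM only), and Mt1 to 0.0085 without squamous-rich tumors. Over omissions Mt1 ranged from -0.49 to 0.0085, Mt2 from -0.24 to 0.63, Mt3 from 0.70 to 2.73 and Mt4 from 0.13 to 2.56. Calls there were 3 (Xist term), 15 (block), 4 (Xist below 1 FPKM only) and 0 (no squamous-rich tumors), and 0 to 344 over omissions, the highest without KO-8-hetero tumor 1.

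Deviations of 78 same-numbered pairs of libraries had a median correlation of 0.00424, and 19 exceeded 0.1, but most of these pairs join different title groups. The 8 pairs of tumor and normal tissue of the same title prefix had correlations from -0.159 to 0.355 (median -0.0141), and 1 exceeded 0.1. With so few normal libraries per group their deviations mirror each other, so these values cannot tell whether replicate numbers pair libraries. Where no cause is named for a change, the cause was not tested. FPKM carries no fragment totals, so the precision of Mt4 near 1 FPKM in normal tissue is unknown.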
